A study of Mus musculus with 14 samples.

Results

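Voltage-gated sodium channels open when the membrane depolarizes and carry the inward current of the action potential. Each channel is built around 1 large alpha subunit, which forms the pore and the voltage sensor, and beta subunits, which span the membrane once, change gating and surface delivery, and act as adhesion molecules. Parvalbumin-positive (PV) interneurons are inhibitory cells that fire long trains of narrow spikes, and the alpha subunit Nav1.1, the product of Scn1a, is well known for its part in their firing. Here 7 sodium channel genes were followed in hippocampal PV neurons of mice exposed to chronic social defeat stress (CSDS). They were the alpha subunit genes Scn1a, Scn2a, Scn3a and Scn8a and the beta subunit genes Scn2b, Scn3b and Scn4b. The members were chosen by gene name, as 7 of the 39017 genes in the count table, and all 7 were among the 21298 genes that passed the filter on low counts and were tested.

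The mice were male young adults that carried a Cre-dependent EGFP-L10a transgene and PV-Cre, so that the ribosomal protein L10a fused to EGFP was made in cells with Cre driven from the parvalbumin gene. Every group shared this genotype. In translating ribosome affinity purification (TRAP), tagged ribosomes are pulled down from tissue homogenate and their attached mRNA is sequenced, so the values describe ribosome-bound RNA and not protein. Each TRAP library came from both hippocampi of 1 mouse. There were 4 TRAP libraries of non-defeated mice, which were housed in pairs and never met an aggressor, 4 of resilient mice and 3 of susceptible mice. The last 2 groups had both been defeated and were separated afterwards by a social interaction test, with susceptible mice below a ratio of 1. Another 3 libraries, called input, held total RNA of homogenates from non-defeated mice before TRAP. A Cre line labels every cell that expresses parvalbumin in the dissected tissue, whether or not it lies in the hippocampus.

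The 14 libraries held between 64110214 and 94726962 counts. The TRAP label was checked with 9 markers listed for PV interneurons, among them Gad1, Gad2 and Slc32a1, which mark inhibitory neurons in general. Their summed level was 576 to 687 CPM (counts scaled to library size) in input and 3320 to 4680 CPM in TRAP. Of mean sums of 637 CPM in input and 4290 CPM in non-defeated TRAP, Gad1 made up 329 and 1570 CPM and Gad2 160 and 452 CPM. All 9 were called higher in TRAP, and Pvalb itself averaged 25.4 CPM in input and 1460 CPM in non-defeated TRAP. The lowest sum in TRAP, 3320 CPM, belonged to susceptible library 10. All 6 excitatory neuron markers were called lower in TRAP, from a sum of 1910 to 2230 CPM in input to 595 to 1140 CPM in TRAP, so their RNA was reduced but was present in every TRAP library. A set of 6 markers of thalamic neurons exceeded 300 CPM in 4 libraries, namely input 14, non-defeated 9 and 11, and resilient 7, and stood at 113 to 249 CPM in the other 10. Markers of oligodendrocytes (5 of 5), microglia (5 of 5), astrocytes (4 of 5) and oligodendrocyte precursors (3 of 4) were called lower in TRAP, while of 6 markers of other interneurons 2 were higher and 3 were lower. Of 4 endothelial markers, 1 was called higher in TRAP, at summed levels of 2.44 to 3.44 CPM in input and 3.29 to 18.2 CPM in TRAP.

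The positions below are those of the mouse build mm10. Scn3a (chr2:65457118-65567627, minus strand), Scn2a (chr2:65620771-65767447, plus strand) and Scn1a (chr2:66270778-66440840, minus strand) lie near each other, and Scn9a, which was not among the 7, lies beside Scn1a (chr2:66480080-66634962, minus strand). Scn8a is on another chromosome (chr15:100869858-101045938, plus strand). The beta subunit genes share chromosome 9, with Scn3b at chr9:40269217-40291618, Scn2b at chr9:45117782-45130070 and Scn4b at chr9:45138395-45154152, all on the plus strand. No exon of the 7 genes overlapped an exon of another annotated gene.

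Because alpha subunit genes are close copies of each other, the coding sequences were searched for stretches that a 150-base read could not assign. Such stretches were a small part of each gene. An exact copy in another of the 13 family genes compared was found for 0.663% of the 150-base windows of the Scn1a coding sequence, 0.665% for Scn2a and 0.931% for Scn3a, whose longest run, 184 bases, was shared with Scn9a. Scn8a had no shared window and a longest run of 55 bases, and the beta subunit genes had no shared window and runs of at most 16 bases.

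The first comparison set non-defeated TRAP against input, that is, ribosome-bound RNA of PV neurons against total RNA of the hippocampus as a whole. All 7 genes differed. Scn1a, Scn8a, Scn2b and Scn4b were higher in TRAP, and Scn2a, Scn3a and Scn3b were lower. The change ran from 4.42-fold higher for Scn1a to 5.71-fold lower for Scn3b. Many other genes differed too (55% of those tested in either direction, 27.4% higher and 27.6% lower), so 7 of 7 is to be read against that background. In a bulk sample, a lower level cannot be told apart from a smaller share of the cells that express the gene. Cell type and RNA fraction differ together in this contrast, so their parts cannot be told apart either.

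**Figure D1:**
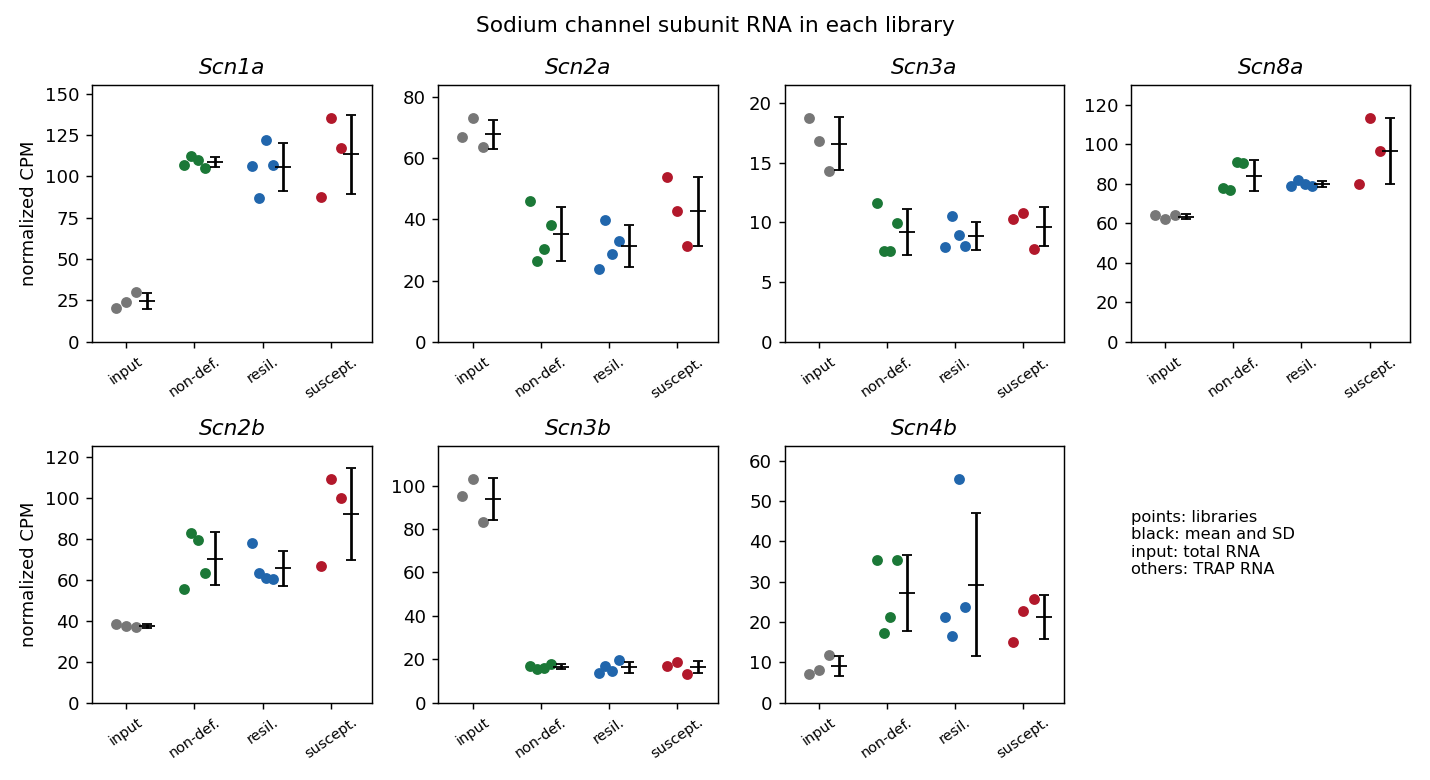
Normalized CPM (vertical axis, from 0) of each of the 7 subunit genes in every library, by group, with 1 point per library and the mean and SD in black. Input points lie below all non-defeated TRAP points for Scn1a, Scn8a, Scn2b and Scn4b and above them for Scn2a, Scn3a and Scn3b, whereas the points of the 3 TRAP groups overlap for every gene.

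Scn1a stood at 20.3, 23.8 and 29.8 CPM in the 3 input libraries and at 107, 112, 110 and 105 CPM in the 4 non-defeated TRAP libraries. Every TRAP library thus lay far above every input library, and the TRAP libraries were close to one another. The log2 fold change was 2.14 (SE 0.16, edgeR adjusted p = 9.76e-08).

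Scn8a encodes Nav1.6, the main alpha subunit of mature axon initial segments and nodes of Ranvier. Its values were 64.0, 61.9 and 64.0 CPM in input and 78.0, 76.8, 90.9 and 90.5 CPM in non-defeated TRAP. The groups did not overlap, but this was the smallest change of the 7, with a log2 fold change of 0.41 (SE 0.10, edgeR adjusted p = 0.00408). Without the 4 libraries over 300 CPM of thalamic markers, its log2 fold change was again 0.41 and its adjusted p 0.0499, the highest among the settings tried.

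Scn2a encodes Nav1.2, a channel of excitatory neurons and of early axons. It was measured at 66.9, 73.0 and 63.6 CPM in input and at 46.1, 26.4, 30.4 and 38.2 CPM in non-defeated TRAP, so that every TRAP library lay below every input library. The log2 fold change was -0.94 (SE 0.21, edgeR adjusted p = 0.00151). Scn3a encodes Nav1.3, which is most abundant before birth, and was the least abundant alpha subunit in every group. It was at 18.7, 16.8 and 14.3 CPM in input and at 11.6, 7.60, 7.62 and 9.93 CPM in non-defeated TRAP, again without overlap, with a log2 fold change of -0.85 (SE 0.17, edgeR adjusted p = 0.000816).

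The beta subunits split in the same way. Scn3b, whose product binds alpha subunits without a disulfide bond, was at 95.1, 103 and 83.4 CPM in input and at 16.8, 15.4, 15.7 and 17.9 CPM in non-defeated TRAP. No other member lay so far below input, with a log2 fold change of -2.51 (SE 0.14, edgeR adjusted p = 7.35e-09). Scn2b, whose product is linked to alpha subunits by a disulfide bond, was at 38.3, 37.2 and 36.7 CPM in input and at 55.6, 82.9, 79.3 and 63.1 CPM in non-defeated TRAP. All TRAP libraries were above input although they spread more widely, and the log2 fold change was 0.91 (SE 0.17, edgeR adjusted p = 0.000414).

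Scn4b encodes the other disulfide-linked beta subunit of the set, the one known for resurgent sodium current, which flows as the membrane repolarizes. Its values were 7.04, 8.18 and 11.8 CPM in input and 35.3, 17.2, 21.2 and 35.3 CPM in non-defeated TRAP. The log2 fold change was 1.60 (SE 0.39, edgeR adjusted p = 0.00335), and its standard error was the largest of the 7. High thalamic marker sums went with high Scn4b in some libraries of a kind but not in all. The input library with the highest Scn4b, library 14, also had the highest thalamic sum of the input libraries, 419 CPM, and the 2 non-defeated libraries at 35.3 CPM of Scn4b, libraries 9 and 11, had sums of 473 and 327 CPM against 165 and 139 CPM in libraries 1 and 6. Among the susceptible libraries, however, library 10 had the highest sum, 249 CPM, and the lowest Scn4b, 15 CPM, and libraries 2 and 4, at 151 CPM each, had 22.8 and 25.6 CPM of Scn4b. The part of thalamic RNA in these values was not tested. Without the 4 libraries over 300 CPM, a choice made after seeing the data, Scn4b was still higher in TRAP by 1.32 on the log2 scale (edgeR adjusted p = 0.00183).

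Input and TRAP did not overlap for any of the 7 genes, which also held for 62% of all genes tested. In the exact permutation test over libraries, 2-sided, 6 of the 7 had p = 0.0286, the smallest that 4 against 3 libraries can give, and Scn2a had p = 0.0571. Each of the 7 passed an adjusted p of 0.05 in the same direction under all 17 other settings.

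**Figure D2:**
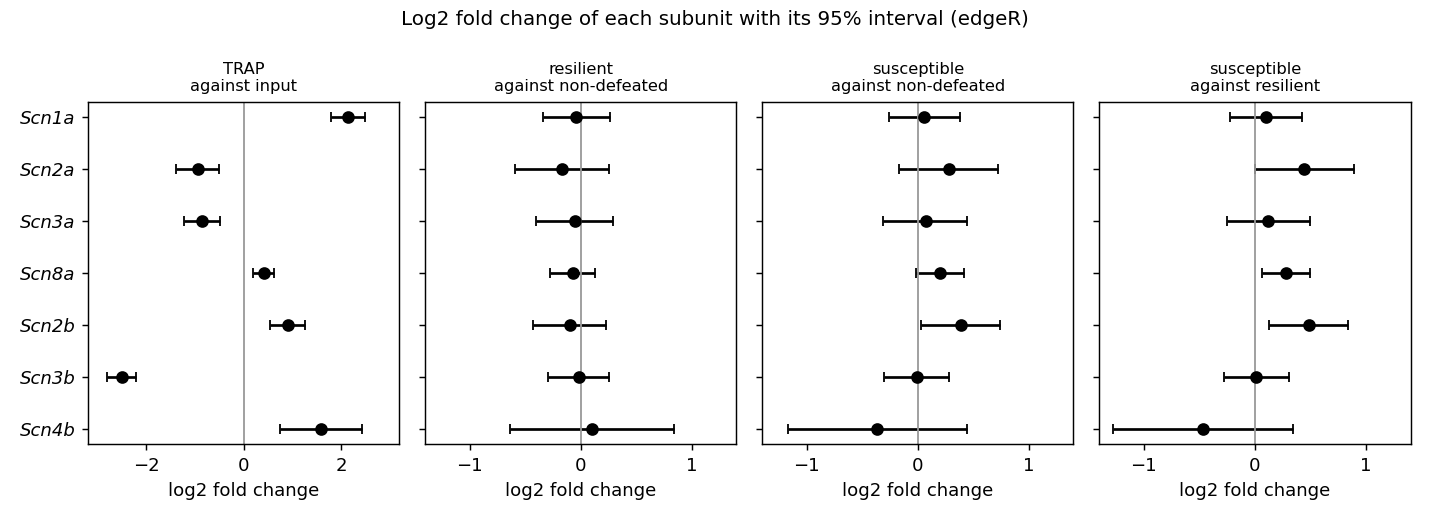
Log2 fold change of each subunit (horizontal axis) in the 4 comparisons, with the estimate as a point and its 95% interval from edgeR as a bar; the leftmost panel has a wider axis than the others. In TRAP against input no interval reaches 0, from -2.51 for Scn3b to 2.14 for Scn1a, while in the 3 stress comparisons the points lie between -0.47 and 0.49.

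Levels of different genes were compared as RPKM, which is CPM divided by the exon length in kilobases. Within each library, every alpha subunit was also given as a share of the summed RPKM of the 4 alpha subunits. In input, Scn2a made up 41.3% ± 2.43 (SD, n = 3) of alpha subunit RNA, Scn8a 31.2% ± 1.18, Scn1a 17.1% ± 3.27 and Scn3a 10.4% ± 1.48. In non-defeated TRAP, Scn1a made up 52.6% ± 3.42 (SD, n = 4), Scn8a 28.7% ± 2.37, Scn2a 14.8% ± 3.24 and Scn3a 3.96% ± 0.738. Scn1a and Scn2a thus changed places while the share of Scn8a overlapped between them. The ratio of Scn1a to Scn2a RPKM was 0.418 ± 0.102 in input and 3.71 ± 0.996 in non-defeated TRAP.

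The beta subunits showed a similar exchange. Scn3b held 63.5% ± 3.28 of the summed RPKM of the 3 beta members in input and 12.8% ± 1.17 in non-defeated TRAP. Scn2b held 29.8% ± 1.56 and 63.8% ± 9.91, and Scn4b 6.75% ± 2.19 and 23.4% ± 8.74. The summed RPKM of the 4 alpha subunits was 12.9 ± 0.262 in input and 18.6 ± 0.667 in non-defeated TRAP, and that of the 3 beta subunits was 27.0 ± 1.51 and 23.6 ± 0.974, which brought the beta to alpha ratio from 2.10 ± 0.102 to 1.27 ± 0.0873. These shares and sums are descriptions without a test.

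**Figure D3:**
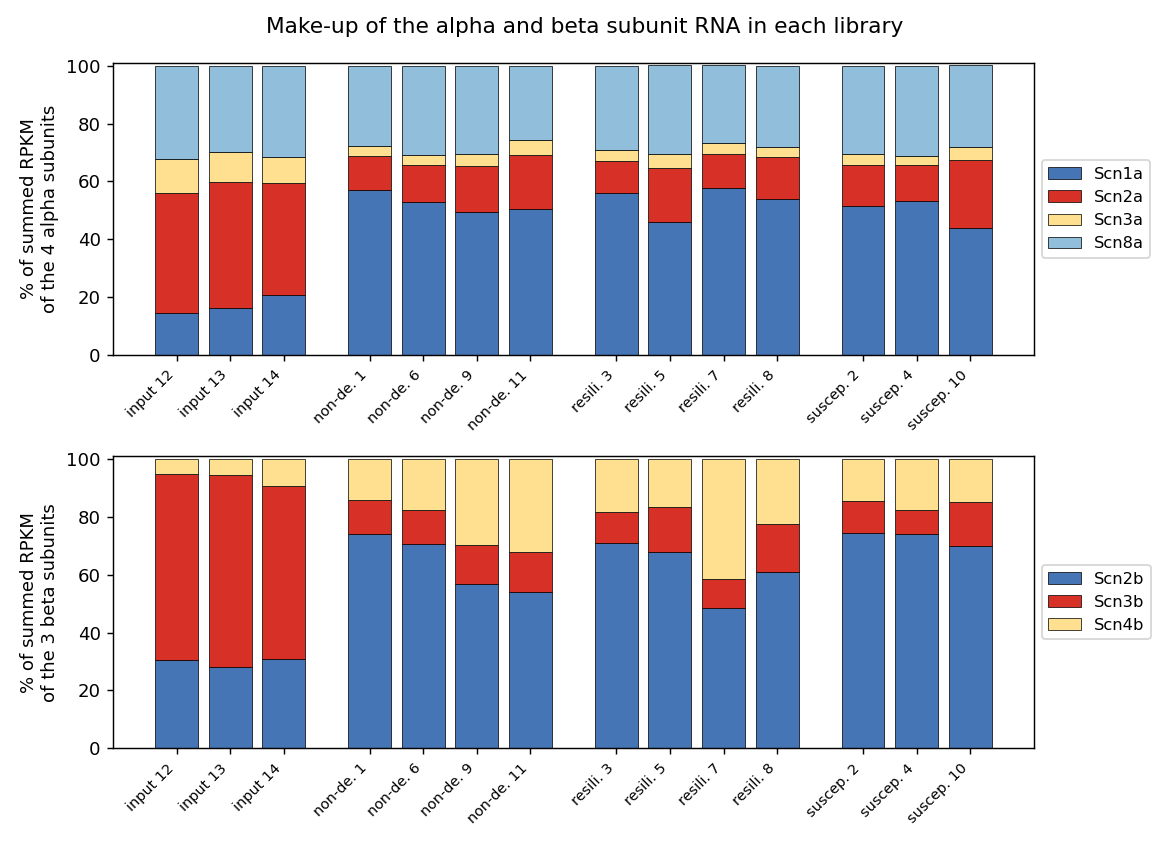
Percent of summed RPKM held by each alpha subunit (upper panel) and each beta subunit (lower panel), with 1 stacked bar per library. Scn2a and Scn3b take the widest bands in the 3 input libraries (means of 41.3% and 63.5%), and Scn1a and Scn2b in the 4 non-defeated libraries (means of 52.6% and 63.8%); the resilient and susceptible bars resemble the latter, with a wide Scn4b band in resilient library 7.

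Ordered by RPKM, input ran from Scn3b (17.2 ± 1.82) through Scn2b (8.03 ± 0.183), Scn2a (5.33 ± 0.377), Scn8a (4.01 ± 0.0768), Scn1a (2.21 ± 0.432) and Scn4b (1.81 ± 0.495) to Scn3a (1.33 ± 0.176). The last 3 overlapped with their neighbours in this order and the others did not. In non-defeated TRAP the order was Scn2b (15.1 ± 2.79), Scn1a (9.76 ± 0.302), Scn4b (5.47 ± 1.89), Scn8a (5.33 ± 0.490), Scn3b (3.01 ± 0.211), Scn2a (2.77 ± 0.687) and Scn3a (0.738 ± 0.158). Scn4b could not be separated from Scn8a there, nor Scn3b from Scn2a, because their libraries overlapped. Scn2b and Scn1a also took the first 2 places in resilient and in susceptible TRAP, and Scn3a the last.

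The next comparisons asked whether the sodium channel RNA of PV neurons differed with the outcome of CSDS. None of the 7 genes passed an adjusted p of 0.05 in any of the 3 comparisons among TRAP groups, and for none of them were any 2 of these groups free of overlap. In resilient against non-defeated mice no gene of the 21298 tested passed (0% called), and 4.38% had an unadjusted p under 0.05 by edgeR, none of them a member. In susceptible against non-defeated mice 0.0376% of all genes passed, and in susceptible against resilient mice 1.89% passed, so that few calls were to be had for a list of 7. The groups failed to overlap for 2.35%, 8.62% and 15.1% of all genes in these 3 comparisons, in the order given. The intervals give the sizes of change that remain possible.

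Resilient mice differed little from non-defeated mice in these genes. Scn1a stood at 106, 86.9, 122 and 107 CPM in resilient TRAP, a span that enclosed all 4 non-defeated values, with a log2 fold change of -0.04 (95% interval -0.34 to 0.26). Scn2a was at 23.8, 39.9, 28.7 and 32.9 CPM, with a log2 fold change of -0.17 (95% interval -0.59 to 0.25). Scn3a was at 7.91, 10.5, 8.98 and 8.04 CPM and Scn3b at 13.8, 16.8, 14.7 and 19.5 CPM, with log2 fold changes of -0.05 and -0.02 (95% intervals -0.40 to 0.29 and -0.29 to 0.25).

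Scn8a was nearly level across the resilient libraries, at 78.6, 81.8, 80.0 and 78.8 CPM. Its log2 fold change was -0.07 (95% interval -0.28 to 0.13), which was the narrowest interval in this comparison. Scn2b was at 78.0, 63.0, 60.8 and 60.1 CPM, with a log2 fold change of -0.10 (95% interval -0.43 to 0.23).

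Scn4b was the exception in spread. It stood at 21.3, 16.4, 55.4 and 23.7 CPM in resilient TRAP, and the value of 55.4 CPM in library 7 stood far above the other resilient values. The same library had the highest thalamic marker sum of the series, 783 CPM, while the other resilient libraries had 137 to 153 CPM. The log2 fold change against non-defeated mice was 0.10 (95% interval -0.64 to 0.84), the widest interval of the 7, and it was -0.41 without library 7.

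**Figure D4:**
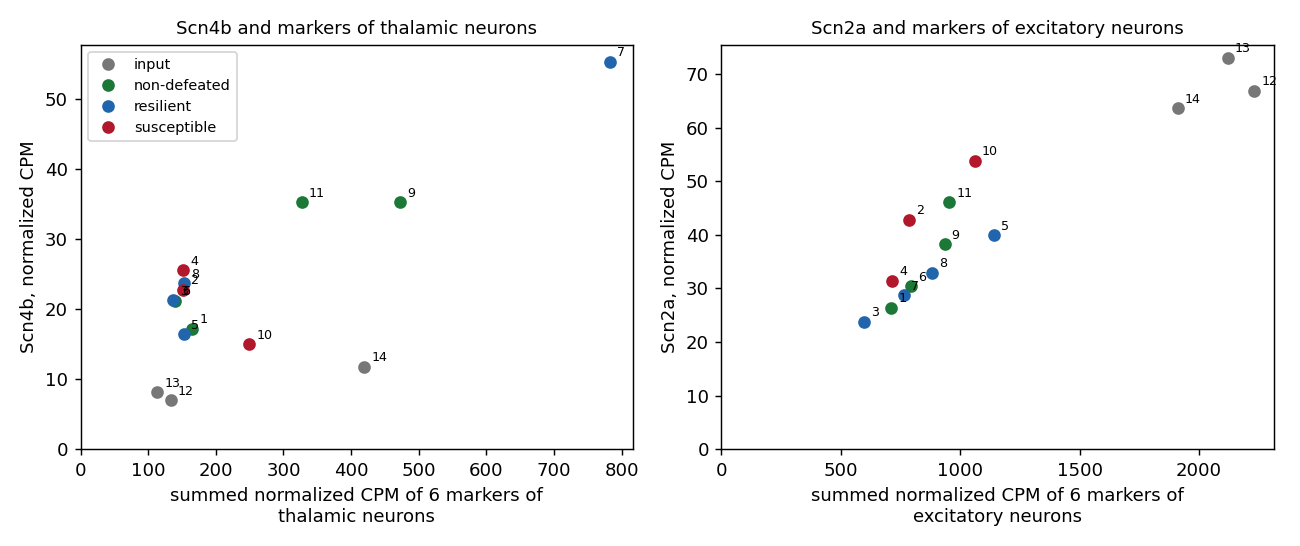
Left, normalized CPM of Scn4b (vertical axis) against the summed normalized CPM of 6 thalamic neuron markers (horizontal axis); right, Scn2a against the sum of 6 excitatory neuron markers; each point is 1 library with its number. Resilient library 7 is highest on both axes at left (783 and 55.4 CPM), and at right the 3 input libraries lie apart from the TRAP libraries, among which the lowest value of Scn2a, 23.8 CPM, goes with the lowest sum, 595 CPM.

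In susceptible mice, Scn2b and Scn8a had the highest values seen in any library. Scn2b was at 66.4, 109 and 100 CPM in libraries 10, 2 and 4, so that libraries 2 and 4 exceeded every other library of the series and library 10 lay within the range of the other TRAP groups. It exceeded the non-defeated level by 0.39 on the log2 scale (SE 0.17, 95% interval 0.03 to 0.74, edgeR unadjusted p = 0.0345, adjusted p = 0.345). Against resilient mice it was 0.49 (SE 0.17, 95% interval 0.13 to 0.84, edgeR unadjusted p = 0.0104, adjusted p = 0.119). Neither passed, and the exact permutation test gave p = 0.200 and p = 0.0857.

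Scn8a followed the same pattern across these libraries, with 80.0, 113 and 96.7 CPM in libraries 10, 2 and 4. The last 2 were above every other library, and library 10 was level with the resilient mice. The log2 fold change was 0.20 against non-defeated mice (95% interval -0.02 to 0.42, edgeR adjusted p = 0.405) and 0.28 against resilient mice (95% interval 0.06 to 0.50, edgeR unadjusted p = 0.0175, adjusted p = 0.149), with exact permutation p = 0.200 and p = 0.0571. An unadjusted p under 0.05 was found for 13.3% of all genes in the first of these comparisons, where 1 of the 7 members had one, and for 20.9% in the second, where 2 of the 7 did.

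These values rested on single libraries. Without susceptible library 2, the difference from resilient mice was 0.35 for Scn2b and 0.15 for Scn8a on the log2 scale, and that from non-defeated mice 0.25 and 0.07. Without susceptible library 10, Scn2b was higher than in resilient mice by 0.67 on the log2 scale (edgeR adjusted p = 0.029) and Scn8a by 0.40 (edgeR adjusted p = 0.0344). Both then passed, in a fit that called 4.88% of all genes. Library 10 had the lowest PV marker sum in TRAP, 3320 CPM against 4010 and 4680 CPM in susceptible libraries 2 and 4. That sum includes the general inhibitory markers Gad1, Gad2 and Slc32a1. The excitatory marker sum of library 10 was 1060 CPM against 784 and 713 CPM in libraries 2 and 4. The summed markers of other interneurons were 497, 858 and 872 CPM in susceptible libraries 10, 2 and 4, 425 to 624 CPM in non-defeated TRAP and 432 to 785 CPM in resilient TRAP, and their highest values there, in non-defeated library 1 and resilient library 3, were in the libraries with the highest Scn2b of those groups. Blood markers moved with the group as well. The sum of 3 hemoglobin genes was 738 to 982 CPM in susceptible TRAP, 96.8 to 198 CPM in non-defeated TRAP and 108 to 490 CPM in resilient TRAP, with 2 of 3 called higher against non-defeated and 3 of 3 against resilient mice. The part of these markers in the values of Scn2b and Scn8a was not tested. The sample names gave a further split: among libraries numbered 1 to 6 the difference from resilient mice was 0.57 for Scn2b and 0.38 for Scn8a on the log2 scale (2 against 2 libraries), and among those numbered 7 to 11, where library 10 was the single susceptible one, it was 0.14 and 0.01.

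Scn1a stood at 87.8, 135 and 117 CPM in susceptible libraries 10, 2 and 4, and so included the highest value of the series beside one of the lowest in TRAP. Its log2 fold change was 0.06 against non-defeated mice (95% interval -0.26 to 0.38) and 0.10 against resilient mice (95% interval -0.22 to 0.42). A change of Scn1a of the size seen between TRAP and input lay outside both intervals.

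Scn2a was at 53.8, 42.8 and 31.4 CPM in libraries 10, 2 and 4, and so was highest where Scn1a, Scn8a and Scn2b were lowest. Its log2 fold change was 0.28 against non-defeated mice (95% interval -0.17 to 0.72) and 0.44 against resilient mice (SE 0.21, edgeR unadjusted p = 0.0515, adjusted p = 0.242), and without library 10 these were 0.07 and 0.24. Among the 11 TRAP libraries Scn2a was highest in susceptible library 10, with an excitatory marker sum of 1060 CPM, and lowest in resilient library 3, with the lowest excitatory sum, 595 CPM. The highest excitatory sum in TRAP, 1140 CPM in resilient library 5, went with 39.9 CPM of Scn2a. The part of excitatory neuron RNA in these values was not tested.

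The remaining members gave no ordering of the groups. Scn3a was at 10.3, 10.8 and 7.77 CPM and Scn3b at 16.9, 18.7 and 13.3 CPM in susceptible libraries 10, 2 and 4. Their log2 fold changes were 0.07 and -0.01 against non-defeated mice and 0.12 and 0.01 against resilient mice. Scn4b was at 15, 22.8 and 25.6 CPM, with log2 fold changes of -0.37 (95% interval -1.17 to 0.44) and -0.47 (95% interval -1.28 to 0.34). Without the 4 libraries over 300 CPM of thalamic markers, those values of Scn4b were 0.15 and 0.04.

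As shares of their class, the subunits were much alike in the 3 TRAP groups. Scn1a held 52.6% ± 3.42 of alpha subunit RPKM in non-defeated, 53.4% ± 5.18 in resilient and 49.5% ± 5.02 in susceptible mice, and Scn8a 28.7% ± 2.37, 28.7% ± 1.69 and 30.0% ± 1.56. Scn2b held 63.8% ± 9.91, 62.1% ± 10 and 72.8% ± 2.47 of beta subunit RPKM, and Scn4b 23.4% ± 8.74, 24.6% ± 11.4 and 15.7% ± 1.70, with n = 4, 4 and 3. The ranges of all 3 groups overlapped for each of these shares.

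The other genes of the family gave a wider view of the same contrast. From a list of 8 other sodium channel genes, 5 were tested, since Scn4a, Scn10a and Scn11a did not pass the filter on low counts. In TRAP against input 2 were higher and 2 were lower, beside 27.4% higher and 27.6% lower over all genes tested. Scn9a, which encodes Nav1.7, a channel best known in sensory neurons, was higher by 2.06 on the log2 scale (SE 0.16, edgeR adjusted p = 1.21e-07), close to its neighbour Scn1a. Nalcn, a sodium leak channel, was lower (log2 fold change -0.54, edgeR adjusted p = 0.0147). Scn7a, at a log2 fold change of -0.69, did not pass. None of the 5 passed in the 3 stress comparisons by edgeR, and 0 had an unadjusted p under 0.05.

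Of 33 genes whose products anchor, modify or bind sodium channels, all were tested. In TRAP against input 10 were higher, 13 were lower and 10 did not pass, beside 27.4% higher and 27.6% lower over all genes. Their median log2 fold change was -0.10, beside -0.04 over all genes. The fibroblast growth factor homologous factors, intracellular proteins that bind the tail of alpha subunits and set their inactivation, divided evenly. Fgf11 was higher by 1.70 (SE 0.18, edgeR adjusted p = 2.04e-06) and Fgf12 by 1.64 (SE 0.14, edgeR adjusted p = 3.24e-07) on the log2 scale, while Fgf14 was lower (log2 fold change -1.25, SE 0.15, edgeR adjusted p = 8.04e-06), as was Fgf13.

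Prrt2, a presynaptic protein that also binds sodium channels, had the lowest value of the list (log2 fold change -1.72, SE 0.13, edgeR adjusted p = 1.07e-07). Its exons overlap those of another annotated gene over 92.4% of their length, so its count is uncertain. Among 12 anchoring and adhesion genes 3 were higher and 5 lower, and among 11 kinases and ligases 3 were higher and 4 lower. Of 3 calmodulin genes 1 was higher. These counts stand beside 27.4% higher and 27.6% lower over all genes tested. None of the 33 passed in any stress comparison by edgeR. At an unadjusted p under 0.05 there were 0 higher and 1 lower in resilient against non-defeated, 1 higher and 5 lower in susceptible against non-defeated, and 4 higher and 8 lower in susceptible against resilient mice, where the smallest adjusted p was 0.0595 and DESeq2 called 1. That is 1, 6 and 12 of 33, beside 4.38%, 13.3% and 20.9% of all genes tested.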

How the data were processed

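Hippocampal RNA was measured by TRAP/RNAseq in 11 TRAP and 3 input libraries. Per the labels and the methods, the authors made full-length cDNA with a kit that does not keep strand, sequenced single reads of 150 bp, aligned them with STAR (2.5.3a in the submitters' processing notes) to mm10 and deposited raw counts per gene (HTSeq). The deposited counts carry Ensembl identifiers, of which 37607 of 39017 were named from GENCODE mouse release 21, and counts on unnamed genes were 0.824% of the total. From the counts, edgeR 4.0.16 in R 4.3.3 gave TMM factors, CPM, and quasi-likelihood tests with all 14 libraries in 1 model. Genes were filtered by expression per group, p-values were adjusted by Benjamini-Hochberg over the 21298 genes tested, and a gene was called at an adjusted p under 0.05. RPKM used the union of exons. Exact permutation tests used log2 CPM with a prior count of 2. edgeR was used in place of the DESeq2 test named in the methods, and DESeq2 1.42.0 was an alternative. The procedures were tested on simulated data. Depth was 64110214 to 94726962 counts per library. The closest replicates, 2 input libraries, differed by 13.2 times the sampling noise (chi-square per degree of freedom). No pair within a group was thus the same library sequenced again. This value cannot tell repeat preparations of the same RNA from separate mice. Shared stretches were found in the GENCODE coding sequence of the longest coding transcript of each gene.

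The members and lists were chosen with earlier results of these data known. All 7 members were named in the text, and from the other lists the 3 genes per direction with the largest change among those called. Some items are not reported here. Nalcn, Scn7a and Fgf13 were named after their values were seen. Alternatives were other scaling, filters, tests, sample sets, offsets for gene length and GC content, and leaving out each library.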

Additional observations from a re-analysis of the deposited data

How the results depend on the processing

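In TRAP against input all 7 subunits were called in the same direction under all 17 alternatives, with log2 fold changes of 2.02 to 2.40 for Scn1a, -1.31 to -0.72 for Scn2a, -1.23 to -0.62 for Scn3a, 0.37 to 0.63 for Scn8a, 0.82 to 1.09 for Scn2b, -2.68 to -2.30 for Scn3b and 1.32 to 1.84 for Scn4b. With an offset for gene length, 2 other sodium channel genes were called in place of 4. No member was called in a stress comparison under any alternative except susceptible against resilient without susceptible library 10 (0 to 2 over the libraries left out, 2 without library 10). Partner genes called there numbered 0 in the reported fit, 1 with DESeq2, 3 with the likelihood ratio test and 0 to 3 when 1 library was left out, in fits that called 403, 991, 1099 and 6 to 1058 of all genes tested. The 1058 came without susceptible library 10, and the 3 partner genes with them.

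Several uncalled differences changed sign. Without the 4 libraries over 300 CPM of thalamic markers, chosen after seeing the data, resilient against non-defeated gave 0.20 for Scn2a, 0.23 for Scn3a and 0.12 for Scn3b on the log2 scale, susceptible against non-defeated 0.08 for Scn3b and 0.15 for Scn4b, and susceptible against resilient -0.04 for Scn3b and 0.04 for Scn4b. In susceptible against non-defeated, Scn3b was 0.01 with a covariate for the sample number, 0.05 with the length offset and 0.02 with upper quartile scaling. Leaving out 1 library gave, for resilient against non-defeated, -0.12 to 0.04 for Scn1a, -0.15 to 0.08 for Scn3a, -0.12 to 0.05 for Scn3b and -0.41 to 0.30 for Scn4b. For susceptible against non-defeated it gave -0.09 to 0.21 for Scn1a, -0.02 to 0.20 for Scn3a and -0.12 to 0.12 for Scn3b. For susceptible against resilient it gave -0.05 to 0.25 for Scn1a, -0.10 to 0.14 for Scn3b, and -0.66 to 0.05 for Scn4b. Others kept their sign but moved. Scn8a ranged over 0.07 to 0.32, Scn2a over 0.07 to 0.45 and Scn2b over 0.25 to 0.57 in susceptible against non-defeated, and over 0.15 to 0.40, 0.24 to 0.62 and 0.35 to 0.67 in susceptible against resilient. The cause was not tested.

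Lengths from the longest annotated transcript in place of all exons moved the shares of Scn2b to 24.8% in input and 70.3% in susceptible mice, and of Scn3b to 69.6% in input, 16.2% in non-defeated and 16.7% in resilient mice. Over all genes, susceptible against resilient gave 1 call with the 11 TRAP libraries alone and 0 with the 2 groups alone. Groups of 3 and 4 limit what the stress comparisons can show. No paired analysis was possible because the groups share no sample numbers.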

Other observations

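As a description over the 11 TRAP libraries, which share their processing, with no test, Pearson's r of log2 CPM was 0.84 between Scn2a and Scn3a and 0.73 between Scn8a and Scn2b. Scn3b followed with 0.60 to Scn2a and 0.52 to Scn3a, and Scn1a gave 0.55 to Scn8a, 0.55 to Scn2b and 0.50 to Scn4b, while Scn1a against Scn2a gave -0.36. Of all other genes tested, the most alike to Scn2a over these libraries was Gria2, an AMPA receptor subunit (r = 0.96). Scn2b was most like Thy1, a surface glycoprotein of neurons (r = 0.99), Scn1a was most like Shisa4 (r = 0.96), Scn8a like Srpk1 (r = 0.91) and Scn4b like Sptssb (r = 0.95). For Scn3a and Scn3b the closest genes were the predicted genes Gm22643 and Gm10313 (r = 0.91 each). Each of these was the highest over all genes tested, so some closeness follows from the number compared.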
